A study of Rattus norvegicus with 8 samples.

Results

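Rtn3 encodes reticulon 3, a membrane protein of the endoplasmic reticulum. Of the 26857 probes on the array, 1 could be matched to it. Only 35 probes had a gene symbol here, so the rest may hold other probes of Rtn3. The matched probe carries the accession of a rat Rtn3 transcript, matched by accession to the RefSeq gene table. It was selected on its signals in these same arrays, because every array of methionine-restricted rats lay above every control array. The diet difference is therefore given as a description with no test. RefSeq lists 5 Rtn3 transcripts, that one among them, and the sources used here do not say whether the probe also reads the others.

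Expression was measured in inguinal white adipose tissue, the subcutaneous fat depot of the groin, of male Fischer 344 rats, an inbred strain. Animals of both groups ate a standard rodent chow until 32 days of age. They were then assigned at random to a purified amino acid diet with 0.86% DL-methionine (CON) or with 0.172% (MR), and stayed on it for 20 months. Each diet was represented by 4 single-colour arrays of pooled RNA, and the sources used here do not say how many rats each pool held. The spread between arrays may therefore be technical, and does not measure the spread between rats. In whole tissue, a lower signal from fewer cells of a type and one from less RNA per cell cannot be told apart.

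Reticulons carry a pair of long hydrophobic hairpins near the carboxyl end that wedge into the cytosolic side of the membrane and bend it into tubules. Reticulon 3 is known in cultured cells as a receptor for ER-phagy, the autophagic removal of endoplasmic reticulum, through a long isoform that binds autophagosome proteins. In nerve cells it is known to bind and restrain the beta-secretase Bace1. In adipocytes the same membrane system makes triglyceride and gives rise to lipid droplets.

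Methionine shortage is known to act through the amino acid stress response, in which the transcription factor Atf4, partly with C/EBP proteins such as Cebpb, drives its target genes. The RNA of both factors was measured here, so the Rtn3 promoter was searched for the DNA elements that this family and the unfolded protein response use. In RefSeq's 300-base window of GRCr8, from 250 bases before the gene's start to 50 after it, 1 variant of such an element matched at 8 bases. It is shown with its neighbouring bases on the minus strand, chr1:214098499-214098528, and the capitals mark the match.
Rtn3 promoter: agccacgccccTTACGTCAgtttttttttc
The match lies 157 to 150 bases before the start and is the reverse complement of TGACGTAA, a variant of the cAMP response element, chosen after the sequence was seen. Among the 33469 promoter windows of the same length, 0.807% held this variant on either strand. The variant was picked because it matched, so this share does not show how rarely such a match arises. The core TGACG, contained in the same match, was in 21.2% of the windows. The full element TGACGTCA was found 0 times in the Rtn3 window and in 1.83% of all windows. The C/EBP-ATF element TGATGNAAN was found 0 times and in 3.97% of all windows, and the ER stress response element, ERSE, 0 times and in 0.0657%. A match is a string of letters, not a measured binding site.

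On the log2 scale of the deposited signals, Rtn3 was at 8.47 in CON replicate 1, 8.97 in CON replicate 2, 8.97 in CON replicate 3 and 9.64 in CON replicate 4. It was at 10.28 in MR replicate 1, 12.002 in MR replicate 2, 10.32 in MR replicate 3 and 10.81 in MR replicate 4. The diets did not overlap: the dimmest MR array, replicate 1, exceeded the brightest CON array, replicate 4, by 0.64 on the log2 scale, or 1.56-fold. Such separation in the same direction was seen in 6.04% of the 16114 probes above the level filter, and it is the pattern that chose the gene. The level filter kept probes with a mean signal above 8.53, the 40th percentile among all probes.

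**Figure D1:**
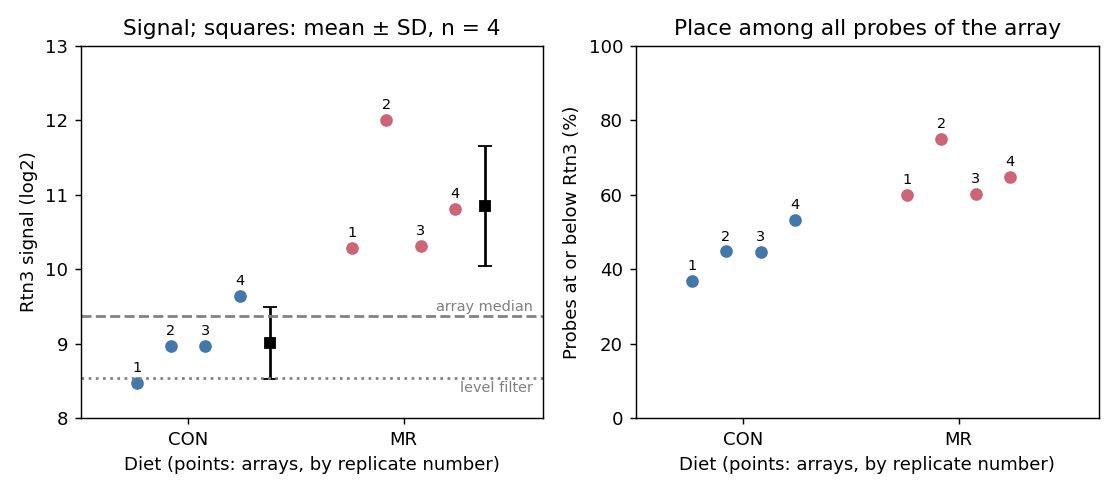
Rtn3 signal on the log2 scale (left) and the percentage of all probes of the same array at or below it (right), for the 4 CON and 4 MR arrays, marked by replicate number; squares and bars are the mean and SD of a diet. The CON arrays span 8.47 to 9.64 and the MR arrays 10.28 to 12.002, and the array median of 9.37 lies among the CON arrays.

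The CON arrays had a mean of 9.01 ± 0.48, and the MR arrays had one of 10.85 ± 0.80 (SD, n = 4). The difference of the means was 1.84 on the log2 scale (SE 0.47), a 3.58-fold higher signal in MR. Every fold given here assumes base 2, which the sources used here do not state. Choosing a gene by the separation of its diets also favours large differences. The difference was 2.78 times the pooled SD within a diet, 0.66. Over the 16 possible pairs of an MR and a CON array, the difference ran from 0.64 to 3.53 with a median of 1.82, and it was at least 1, or 2-fold, in 14 of the pairs.

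The probe lay mostly in the dimmer part of the CON arrays and in the brighter part of the MR arrays. All 8 arrays share a median of 9.37, so places can be compared. In CON the probe stood above or level with 36.8%, 44.8%, 44.7% and 53.2% of all probes in replicates 1 to 4. In MR it stood above or level with 59.9%, 74.98%, 60.3% and 64.8% of them. Thus 3 of 4 CON arrays lay below their array's median and all 4 MR arrays above it. CON replicate 1 was also below the filter level of 8.53. Signal over background was not assessed for these arrays, so how much of the CON signal is transcript is unknown, and the fold rests on dim values.

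The closest arrays of each diet were MR replicates 1 and 3, which differed by 0.035, and CON replicates 2 and 3, by 0.0041. They were picked as the closest, so a gap below the SD of their diet was fixed in advance. MR replicate 2 stood 1.19 above the next MR array, CON replicate 4 stood 0.67 above the next CON array, and CON replicate 1 lay 0.49 below the next. MR replicate 2 was the brightest MR array in 23.2% of all probes above the filter and in 18.0% of those with the same separation of diets as Rtn3.

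The difference was set beside that of all 16114 probes above the filter, whose median was -0.06. Rtn3 ranked 334th by difference, so 2.07% of the probes were higher in MR by as much or more. At least 2-fold higher in MR were 9.07%. By the distance between the lowest MR and the highest CON array, it ranked 100th. The rule used this contrast, and the ranks describe where the gene fell.

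Probes of like brightness gave a narrower frame. The 500 probes nearest in mean level, between 9.83 and 10.04, had a median difference of -0.19. Of these, 51 were at least 2-fold higher in MR, 22 had every MR array above every CON array, and 6 had a difference as large as that of Rtn3. The spread of Rtn3 was close to theirs: their median SD was 0.51 in CON and 0.75 in MR, against 0.48 and 0.80. An SD in MR as large as that of Rtn3 was seen in 227 of the 500.

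**Figure D2:**
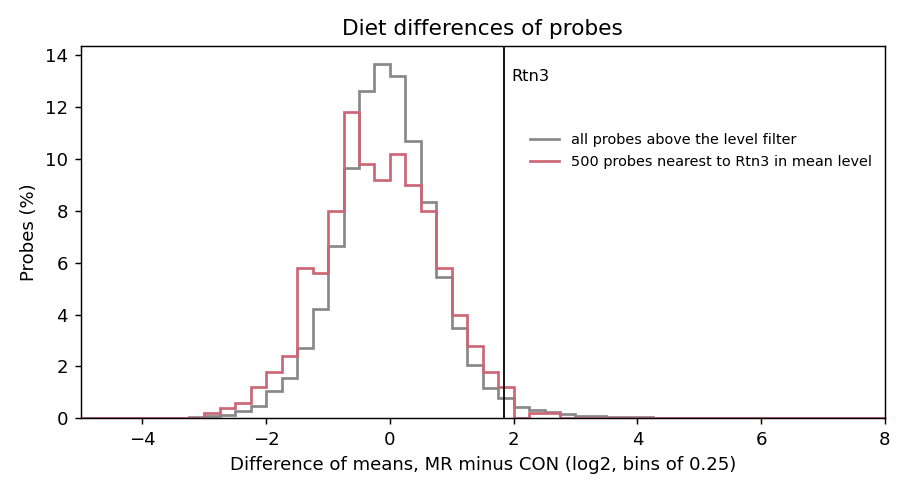
Share of probes (vertical axis, percent) by difference of the diet means, MR minus CON on the log2 scale (horizontal axis), for all 16114 probes above the level filter and for the 500 nearest to Rtn3 in mean level. The vertical line is Rtn3 at 1.84, equalled or exceeded by 2.07% of all these probes and by 6 of the 500.

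The size of the difference depended on single arrays, while its direction was fixed by the way the gene was chosen. When each array was left out in turn, the difference ran from 1.46 without MR replicate 2 to 2.05 without CON replicate 4. Without CON replicate 1 it was 1.66, without CON replicate 2 it was 1.83 and without CON replicate 3 it was 1.82. Without MR replicates 1, 3 and 4 in turn it was 2.03, 2.02 and 1.86. MR replicate 2 alone thus moved the fold from 3.58 to 2.75, the largest shift downwards of the 8.

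On other probes CON replicate 1 stood apart from the rest, and CON replicate 2 sided with MR in some. CON replicate 1 lay over 2 log2 units from all other arrays in 371 probes above the filter, against 9 to 84 for each of the other arrays. CON replicate 2 did so in only 23. In 88 of the 16114 probes above the filter, CON replicate 2 sided with the 4 MR arrays. All 5 exceeded the other CON arrays by more than 2 log2 units there. The same count was not made for the other CON arrays. Rtn3 was not one of the 88 probes: in CON replicate 2 it was at 8.97, beside a mean of 9.03 in the other CON arrays. With both arrays left out, a setting chosen after seeing the data, the Rtn3 difference was 1.55.

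**Figure D3:**
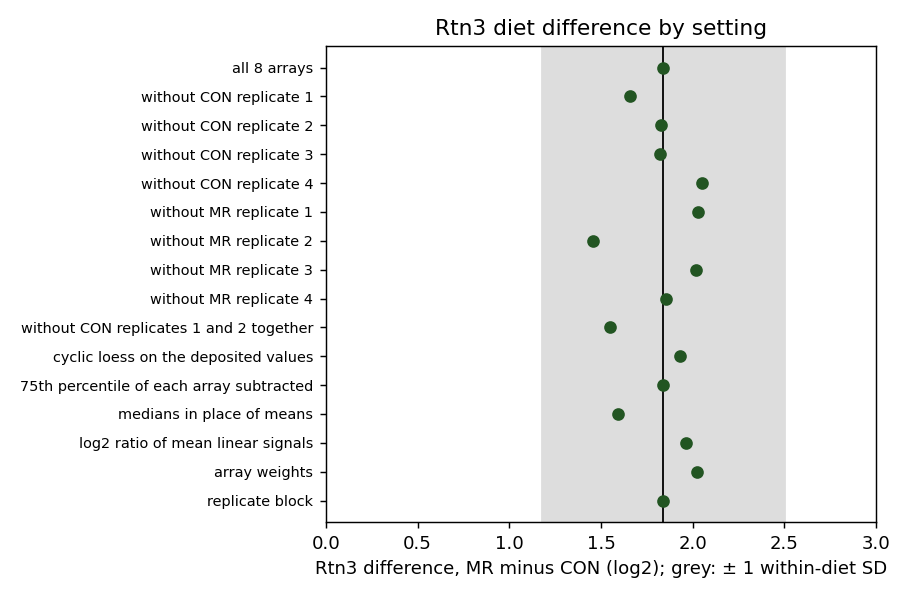
Rtn3 difference, MR minus CON on the log2 scale (horizontal axis), with all 8 arrays, with arrays left out and under other processing; the line is 1.84 and the grey band is 1 pooled SD within a diet on either side. The lowest point lies at 1.46 without MR replicate 2 and the highest at 2.05 without CON replicate 4.

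Few other genes could be set beside Rtn3 by name. Of the 26857 probes, 35 had a gene symbol here, for 34 genes, and 12 of those, each of a different gene, lay above the filter. Among the other 11 genes above the filter, 0 had every MR array above every CON array, beside 6.04% of all probes above the filter, and a count of 0 in so few genes is near that share. The mean was higher in MR in 6 of them and lower in 5. Just outside that rule came Itgae, whose lowest MR array was 0.024 below its highest CON array. Among the 23 named probes below the filter, 1, that of Ugt2b, a UDP-glucuronosyltransferase, had the separation, beside 2.43% of all probes below the filter. Its level was 6.65 to 7.32 in CON and 7.48 to 9.17 in MR.

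Of the reticulon family list, 1 of 8 genes, Rtn3 itself, had a named probe. Of 30 genes of endoplasmic reticulum shape and ER-phagy, such as the atlastins, Reep proteins and Retreg1, 0 had one, nor did any of 7 known partners of reticulon 3 or of 20 genes of adipocyte lipid handling. How these genes stood beside Rtn3 was therefore not analysed here.

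Of 21 genes of the ER and amino acid stress responses, 2 had a named probe. In 0 of these 2 did every MR array lie above every CON array, which at a share of 6.04% over all probes above the filter says nothing particular to the stress genes. Atf4 was at 16.35, 15.90, 16.16 and 16.28 in CON replicates 1 to 4 and at 16.04, 15.98, 15.81 and 16.01 in MR, a difference of -0.21. Cebpb was at 16.59, 16.75, 16.44 and 15.91 in CON and at 16.20, 15.97, 16.50 and 16.41 in MR, a difference of -0.15. The Cebpb difference rested on single arrays: it was -0.097, -0.044 and -0.32 without CON replicates 1, 2 and 4 in turn, and -0.050 and -0.23 without MR replicates 2 and 3. The diets overlapped in both genes. These are RNA levels, and the activity of either factor was not measured.

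Likeness to Rtn3 was measured by Pearson's r over the 8 arrays, which share the diet contrast, so a gene's diet difference can by itself raise or lower r. Beside it stands r after each diet's mean was subtracted. Among the 11 other named genes above the filter, the 3 most like it were Kcnip2 (r = 0.73), Tpra1 (0.66) and Itgae (0.48), and the least like was Ramp2 (-0.64). Below the filter, Hsd17b6 (0.77) and Ugt2b (0.74) scored higher. The order turned with single arrays. In CON replicate 4 Itgae lay apart from the other CON arrays. Without that array Itgae came first at 0.81, before Kcnip2 at 0.73 and Tpra1 at 0.66. Without CON replicate 3 Tpra1 came first at 0.85, before Kcnip2 at 0.82. Without MR replicate 2 Six3 came first at 0.73, before Kcnip2 at 0.59. With all arrays, r within the diets was 0.23 for Kcnip2, 0.54 for Tpra1, -0.24 for Itgae and -0.14 for Ramp2. The order by this r was another: Rnase3 (0.44) came between Tpra1 and Kcnip2, and Cebpb (-0.71) was the lowest. These are descriptions of 8 arrays, 4 to a diet, with no test.

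Kcnip2, which encodes a calcium-binding subunit of voltage-gated potassium channels, was at 11.47, 10.90, 12.503 and 11.59 in CON replicates 1 to 4. In MR it was at 12.63, 13.35, 13.26 and 12.17, so 3 of 4 MR arrays exceeded every CON array. As for Rtn3, MR replicate 2 was the brightest array, but CON replicate 3, not 4, was the brightest of its diet. Another Kcnip2 probe, below the filter, had an r of 0.31.

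Tpra1, a multipass membrane protein, was at 9.42, 10.44, 10.84 and 10.41 in CON and at 10.65, 10.98, 10.51 and 10.69 in MR. It shared with Rtn3 the lowest level in CON replicate 1 and the highest in MR replicate 2, while its diets overlapped. Without CON replicate 1 its diet difference was 0.15 instead of 0.43.

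Among probes without a gene symbol, of which far more were compared, likeness went much higher. Of the 16113 other probes above the filter, 59 had an r of at least 0.9 with Rtn3 and 49 had one of -0.9 or lower. A higher r than that of Kcnip2 was seen in 763, or 4.74%. The transcript closest to Rtn3, rCG49337 in the file's Celera numbering, had an r of 0.97 over all arrays and 0.91 within the diets. It was at 11.74, 12.24, 12.04 and 12.44 in CON and at 12.82, 14.28, 13.30 and 13.02 in MR. The next, rCG48541, had an r of 0.96 and 0.90, with 9.22, 9.34, 9.61 and 9.78 in CON and 10.08, 10.70, 9.76 and 10.35 in MR. Both shared the low CON replicate 1, the high CON replicate 4 and the high MR replicate 2. They were picked for the highest r, so this likeness follows from the choice. With 37 probes at 0.9 or more within the diets and 23 at -0.9 or less, values of this size occurred on both sides of 0.

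**Figure D4:**
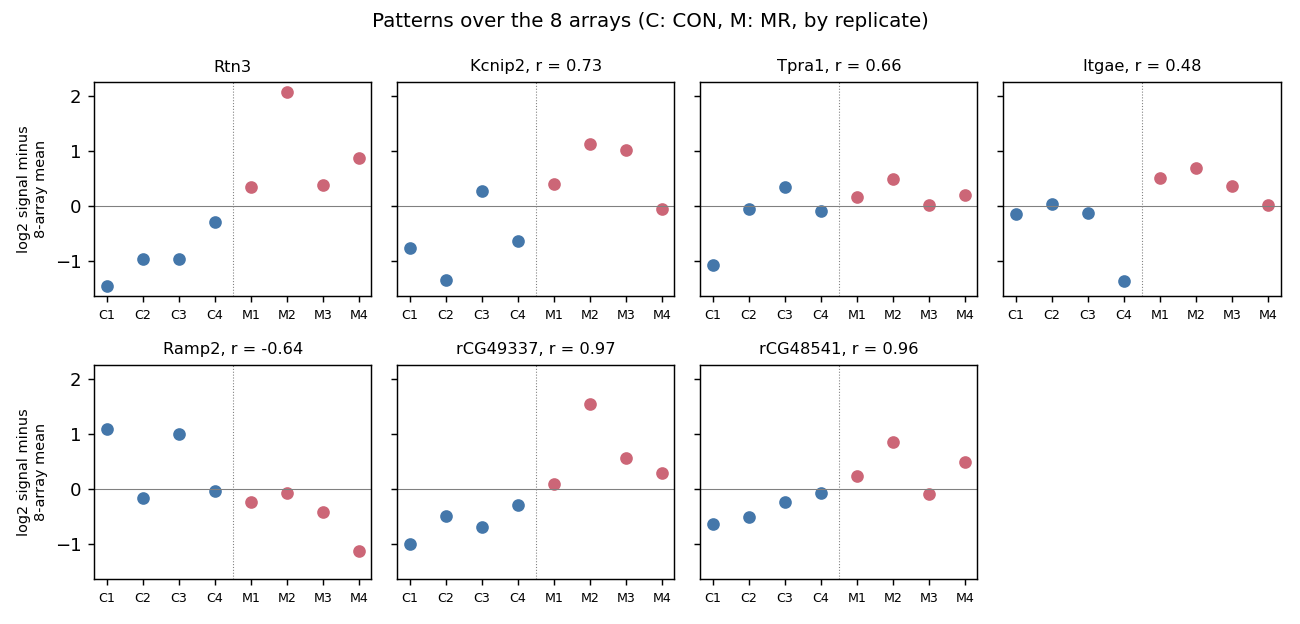
Log2 signal minus the mean of the 8 arrays (vertical axis) by array (horizontal axis, C for CON and M for MR with the replicate number), for Rtn3, the 3 named genes most like it, the least like, and the 2 unnamed transcripts most like it, with Pearson's r over the 8 arrays. MR replicate 2 is the highest array for Rtn3, Kcnip2, Tpra1, Itgae and both unnamed transcripts.

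Markers of other cells in the depot were set beside Rtn3 where a named probe allowed it. The adipocyte list had a named probe for 0 of 7 genes, so the labelled tissue could not be checked against them, and the lists for macrophage, skeletal muscle, nerve, epithelium and lymph node B cells had 0 as well. For endothelium, 1 of 5 was named: Ramp2, the adrenomedullin co-receptor subunit, was at 14.92 to 16.17 in CON and 13.95 to 15.01 in MR. For red blood cells, 1 of 5 was named: the haemoglobin gene Hbb-b1 was at 19.38 to 20.62 in CON and 19.17 to 19.53 in MR.

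For lymphocytes and granulocytes, 2 of 5 were named. Itgae, an integrin chain by which lymphocytes are kept in tissues, was at 10.35 to 11.75 in CON and 11.73 to 12.40 in MR. Rnase3, an eosinophil granule ribonuclease in human, was at 11.13 to 12.26 in CON and 10.42 to 11.88 in MR. For fibroblasts and matrix, 1 of 4 was named: the gelatinase gene Mmp2, whose mean of 8.52 lay below the filter, was at 7.60 to 10.66 in CON and 7.34 to 9.54 in MR. Mean levels of Ramp2, Hbb-b1 and Rnase3 were lower in MR and that of Itgae higher, and the diets overlapped for each. The part of such cells in the Rtn3 difference was not tested.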

How the data were processed

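RNA of 8 samples was read by single-colour chemiluminescent array after digoxigenin labelling, per the labels' protocols. Signals had been normalized before they were deposited and are read here as log2, from their range of 4.90 to 21.29. How the authors corrected background and normalized, and the log base, are not given in sources used here. All columns share a median of 9.37 and nearly one distribution. ERSE is CCAAT and CCACG with 9 bases between. A second table's 60 scanner columns, of 12 arrays with codes matching no label, were not used. Probe identifiers were matched to RefSeq (GRCr8): 34 by accession, 1 by synonym.

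Diet and replicate came from sample titles. Differences of means, ranks and correlations were computed with Python 3.11.15, pandas 2.3.3 and SciPy 1.17.1, and checked on simulated data. No test of the diet difference was run, because the diet contrast chose Rtn3. Sets of 4 arrays were examined for outliers by Dixon's test. Alternatives included cyclic loess and array weights (limma 3.58.1, R 4.3.3). Rtn3 and the lists were chosen with earlier results of these data known. Named are Rtn3, list members with a named probe, the 3 most and 1 least like Rtn3, and 2 unnamed probes most like it; Ugt2b, Hsd17b6, Six3 and Lypd4 were added after their values were seen. The number of arrays limits the precision.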

Additional observations from a re-analysis of the deposited data

Results flagged for a closer look

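In 1 of the 28 sets of 4 arrays examined, those of the 12 named genes and the 2 unnamed transcripts in each diet, 1 array stood far from the other 3. For Itgae in CON the gap of replicate 4 to the nearest array was 0.867 of the whole range, with 10.35 against 11.56 to 11.75 in the others. Chance flags about 1 in 20 such sets. Neither diet of Rtn3 was flagged.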

How the results depend on the processing

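The Rtn3 difference of 1.84 was between 1.46 and 2.05 with 1 array left out; its direction there was fixed by the rule that chose the gene, and so small a change of the arrays cannot move it by 1 SD, so these settings show only its size. Subtracting each array's 75th percentile could not move it either, since the arrays share nearly one distribution. It was 1.93 after cyclic loess, 1.59 with medians, 1.97 as the log2 ratio of mean linear signals and 2.03 with array weights. Same-numbered arrays differed by 1.81, 3.03, 1.35 and 1.16, and the replicate block leaves their mean at 1.84. The sample titles do not say that the numbers mark a shared animal, pool, batch or day, so they were not treated as pairs. Deviations of same-numbered arrays from their diet means correlated at -0.085, -0.25, -0.080 and 0.10 across probes. The count of 974 probes with every MR array above every CON array was 2049 when only same-numbered arrays were compared (replicate block) and 1188 to 1846 with 1 array left out, 1846 without CON replicate 2 and 1649 without MR replicate 1. Without CON replicates 1 and 2 together, chosen after seeing the data, it was 2465. Fewer comparisons between arrays raise this count by construction. The 1461 probes at least 2-fold higher in MR became 334 at the fold of Rtn3, and 1347 to 1860 with 1 array left out. Of the 3 genes most like Rtn3, 2 to 3 were again among the first 3 with 1 array left out. Lypd4 replaced Itgae without CON replicate 2. Without MR replicate 2 Six3 replaced Itgae and came first. With each diet's mean subtracted, 2 of the 3 genes remained, and Rnase3 replaced Itgae. With probes below the filter included, 1 remained, behind Hsd17b6 and Ugt2b, since more genes were compared. Alternatives were run for the differences of 8 other named genes. With 1 array left out, the value for Tpra1 ran from 0.15 to 0.62, against 0.43 with all arrays, and that for Cebpb from -0.32 to -0.044, against -0.15; Itgae ran from 0.47 to 0.94, against 0.79. Signal over background was not assessed, which limits the dim CON values most.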
